A study of Homo sapiens with 12 samples.

Results

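The genes described here are those of serine, asparagine and one-carbon synthesis. They were chosen by symbol, as the rows of the count table named PHGDH, PSAT1, PSPH, SHMT1, SHMT2, MTHFD1, MTHFD2, MTHFD1L, ASNS and PYCR1. The choice was made with earlier results of these data known. All 10 of 10 had a row among the 13820 genes of the table. A filter on low counts kept 12602 genes for testing, 9 of the 10 among them, and PYCR1 was removed by it. The cells were of the established line Z-138, derived from mantle cell lymphoma, and RNA was read at the 3' end of messages (QuantSeq) in 12 libraries, 3 for each of 4 groups. The first group carried an shRNA against SMARCA4 and received 3 µM ibrutinib with 3 µM venetoclax. The second carried the same shRNA and received DMSO. The third carried a control shRNA and received both drugs, and the fourth carried the control shRNA and received DMSO. Cells of every group were grown with doxycycline, and the labels give no duration of treatment. Each shRNA is 1 construct in the libraries analysed here, and no library had a single drug.

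SMARCA4 encodes an ATPase that drives the SWI/SNF remodelling of chromatin. Ibrutinib inhibits BTK, a kinase of B cell receptor signalling, and venetoclax inhibits BCL2, which protects cells from apoptosis. Proliferating cells make serine from a glycolytic intermediate through PHGDH, PSAT1 and PSPH. SHMT1 in the cytosol and SHMT2 in mitochondria pass a carbon of serine to folate and leave glycine, and the MTHFD enzymes carry that carbon on towards formate, purines and thymidylate. ASNS makes asparagine from aspartate and glutamine. Several of these genes are known targets of ATF4, the transcription factor made when amino acid shortage or other stress activates the integrated stress response.

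Promoter sequence is shown for the 4 genes on which the drug results and the motif search turn. ASNS and MTHFD1L carry a C/EBP-ATF response element, the kind of site that ATF4 binds, and PSAT1 and MTHFD2 are the genes that passed the test under drug with both shRNAs. The sequences are the 200 bases before the transcription start in RefSeq, build GRCh38.p14, written 5′ to 3′ on the strand of the gene. They lie at chr7:97872409-97872608 (minus strand) for ASNS and chr6:150866286-150866485 (plus strand) for MTHFD1L. Those of PSAT1 lie at chr9:78296925-78297124 and those of MTHFD2 at chr2:74198415-74198614, both on the plus strand. Capitals mark TGATGNAA, the C/EBP-ATF response element, and CACGTG, the E-box bound by MYC and related factors.
ASNS: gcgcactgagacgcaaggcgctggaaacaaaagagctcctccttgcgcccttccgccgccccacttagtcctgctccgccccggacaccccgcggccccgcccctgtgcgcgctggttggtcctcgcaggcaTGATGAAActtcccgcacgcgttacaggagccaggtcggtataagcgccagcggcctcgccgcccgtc
MTHFD1L: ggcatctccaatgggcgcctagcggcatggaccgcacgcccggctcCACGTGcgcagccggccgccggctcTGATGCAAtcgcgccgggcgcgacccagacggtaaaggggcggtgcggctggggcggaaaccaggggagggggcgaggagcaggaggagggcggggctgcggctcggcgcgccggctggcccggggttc
PSAT1: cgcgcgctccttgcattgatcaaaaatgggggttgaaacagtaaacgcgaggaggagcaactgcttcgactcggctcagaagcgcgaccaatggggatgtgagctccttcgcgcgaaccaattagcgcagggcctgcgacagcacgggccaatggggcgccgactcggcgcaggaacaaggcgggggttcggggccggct
MTHFD2: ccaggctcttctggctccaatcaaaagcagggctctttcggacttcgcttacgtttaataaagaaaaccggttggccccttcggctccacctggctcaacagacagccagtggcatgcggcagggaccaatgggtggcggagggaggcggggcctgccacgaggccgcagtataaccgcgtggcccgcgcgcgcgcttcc

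Both motifs were sought on both strands from 250 bases before to 50 bases after each start. RefSeq windows were at hand for 7 of the 10 genes, 11 windows in all, with none for PSPH, SHMT2 and PYCR1. TGATGNAA was found in 4 of the 11 windows, which belong to 2 genes. In ASNS it began 68 bases before the start of 1 of 2 windows. In MTHFD1L it lay in 3 of 4 windows, which overlap and share 1 site, 129 bases before the start shown. Of 35116 windows in the whole table, 3.62% held TGATGNAA. CACGTG was found in 4 of the 11 windows, against 7.26% of all windows. They were the window of MTHFD1 and the same 3 overlapping windows of MTHFD1L, which share 1 site. The share of genes with either motif was not computed. PHGDH, PSAT1, MTHFD2 and SHMT1 held neither run of letters in these windows, and the 2 motifs did not overlap each other in MTHFD1L.

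Total counts lay between 7279503 and 8896669 in knockdown cells under drug and between 9086910 and 22528537 in knockdown cells in DMSO, where the third replicate was the deepest library of all. They lay between 7905971 and 8732642 in control cells under drug and between 8307729 and 10151679 in control cells in DMSO. SMARCA4 checked the shRNA labels: it was at 159 to 184 CPM, a gene's count as a share of its library's TMM-scaled total, in the 6 knockdown libraries and at 555 to 642 CPM in the 6 control libraries, with no overlap. It cannot check the treatment labels, because it did not pass edgeR's test with the drug in knockdown cells (adjusted p = 0.88) or control cells (adjusted p = 0.686). The column taken as the first replicate of control cells under drug names no treatment and was matched by elimination. Calls of the synthesis genes that change without it are therefore given with the value found without it. Single genes of the other lists were not checked without it. The knockdown goes with its construct in every library, so loss of SMARCA4 and other effects of that construct cannot be told apart. Of 6 B cell markers 5 had rows, all with counts in every group, and so did both mantle cell lymphoma markers, CCND1 and SOX11. Ribosomal RNA took 7.20% to 8.98% of counts in knockdown cells under drug and 10.0% to 11.1% in DMSO, and 10.2% to 10.8% in control cells under drug and 8.86% to 9.47% in DMSO. Whether replicates came from separate cultures is not in the labels, and the spread behind the p-values may thus be technical.

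Under the drug pair, PSAT1 and MTHFD2 were higher with both shRNAs, and ASNS, PHGDH and PSPH passed the test in knockdown cells alone, although the difference between the shRNAs passed for none of the genes. Under knockdown, SHMT2, PHGDH, PSPH, MTHFD1L and MTHFD1 were lower in DMSO and ASNS was higher. The values behind each gene follow in the order of the pathway. Changes are log2 fold changes with standard errors (SE) from edgeR's quasi-likelihood test, and adjusted p-values are by Benjamini-Hochberg over all 12602 genes with a threshold of 0.05.

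**Figure D1:**
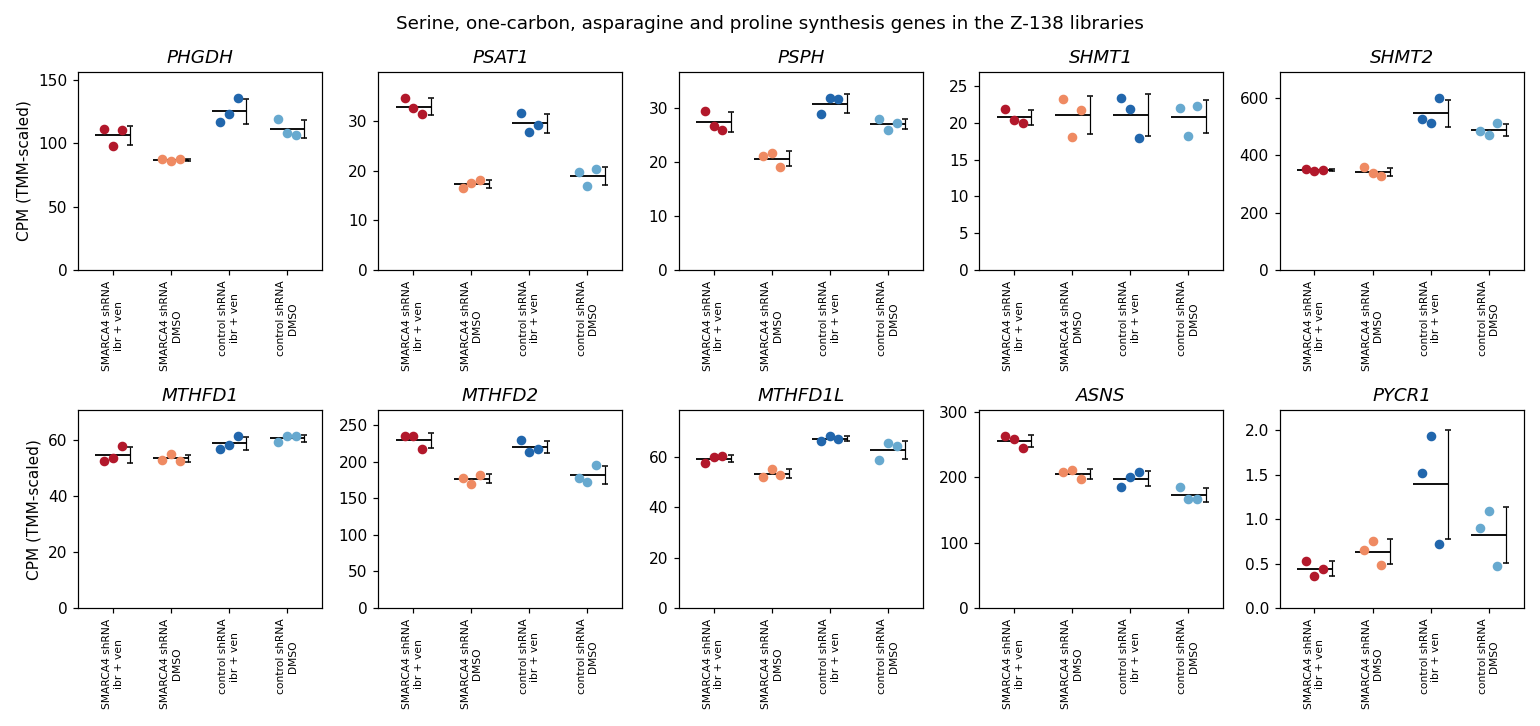
Level of each of the 10 genes in every library, in CPM, with 1 panel a gene, points for libraries, bars for means and error bars for SD (n = 3). The 2 drug groups of PSAT1 (27.9 to 34.8 CPM) lie above both DMSO groups (16.5 to 20.3 CPM), and both knockdown groups of SHMT2 (328 to 358 CPM) lie below both control groups (472 to 602 CPM).

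PHGDH (ENSG00000092621) encodes the dehydrogenase that commits 3-phosphoglycerate to serine synthesis. In knockdown cells it had 112, 97.9 and 110 CPM under drug and 87.6, 86.3 and 87.5 CPM in DMSO. In control cells it had 117, 123 and 136 CPM under drug and 119, 108 and 107 CPM in DMSO. The knockdown libraries lay below the control libraries of the same treatment without overlap, and the drug separated the libraries of knockdown cells but not those of control cells. With knockdown in DMSO, PHGDH fell by 0.36 (SE 0.07, adjusted p = 8.41e-05), to 78.1% of the control level. Under drug it fell by 0.23 (SE 0.07, adjusted p = 0.0073), a call that was lost with library totals as the scaling (-0.15, adjusted p = 0.0827), without the second replicate of knockdown cells under drug (-0.17, adjusted p = 0.0696) and without the third of control cells under drug (-0.16, adjusted p = 0.0829). The drug raised PHGDH in knockdown cells by 0.29 (SE 0.07, adjusted p = 0.0172), while the change in control cells of 0.17 (SE 0.07, adjusted p = 0.332) did not pass. The call in knockdown cells was lost when any 1 of 5 libraries was left out, which were all 3 of knockdown cells in DMSO and replicates 1 and 3 under drug (adjusted p = 0.0625 to 0.144).

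PSAT1 (ENSG00000135069) encodes the aminotransferase of the next step, which takes its nitrogen from glutamate. Knockdown libraries stood at 34.8, 32.7 and 31.4 CPM under drug and 16.5, 17.5 and 18.1 CPM in DMSO. The control cells had 31.6, 27.9 and 29.3 CPM under drug and 19.7, 16.9 and 20.3 CPM in DMSO. The drug libraries lay above the DMSO libraries with both shRNAs, while knockdown and control libraries overlapped in both treatments. Of the 9 genes tested, PSAT1 changed most with the drug. It rose by 0.91 in knockdown cells (SE 0.09, adjusted p = 8.9e-08), to 188% of the DMSO level, and by 0.64 in control cells (SE 0.10, adjusted p = 0.000104), to 156%. The knockdown changed it by -0.12 in DMSO (SE 0.10, adjusted p = 0.395) and by 0.15 under drug (SE 0.09, adjusted p = 0.224), and neither passed. PSAT1 has 4 named pseudogenes in GENCODE 29, none with a row in the table.

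PSPH (ENSG00000146733) encodes the phosphatase that releases serine. With the SMARCA4 shRNA the values were 29.4, 26.7 and 25.9 CPM under drug and 21.1, 21.7 and 19.1 CPM in DMSO. With the control shRNA the values were 28.8, 31.9 and 31.7 CPM under drug and 27.9, 26.0 and 27.2 CPM in DMSO. The 3 knockdown libraries in DMSO were the lowest of the 12, and under drug the knockdown and control libraries overlapped. With knockdown, PSPH fell by 0.41 in DMSO (SE 0.09, adjusted p = 0.000795), to 75.4% of the control level, and its change under drug of -0.17 (SE 0.09, adjusted p = 0.161) did not pass. The drug raised it by 0.42 in knockdown cells (SE 0.09, adjusted p = 0.0109). That call was lost without the first replicate under drug (0.37, adjusted p = 0.12) and without the third in DMSO (0.35, adjusted p = 0.169). In control cells the change of 0.19 (SE 0.09, adjusted p = 0.503) did not pass, though the drug libraries lay above the DMSO libraries there too. The named pseudogene PSPHP1 has a row of its own with at most 19 counts, and reads shared with it could have been split or dropped.

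SHMT2 (ENSG00000182199) encodes the mitochondrial serine hydroxymethyltransferase. In knockdown cells it had 353, 346 and 349 CPM under drug and 358, 340 and 328 CPM in DMSO. Control libraries stood at 526, 512 and 602 CPM under drug and 484, 472 and 512 CPM in DMSO. Every knockdown library was lower than every control library, and drug and DMSO libraries overlapped with either shRNA. Among the 9 genes, SHMT2 showed the greatest fall with knockdown. It fell by 0.65 under drug (SE 0.06, adjusted p = 1.09e-10), to 63.9% of the control level, and by 0.52 in DMSO (SE 0.06, adjusted p = 1.05e-08), to 69.9%. The drug changed it by 0.03 in knockdown cells (SE 0.06, adjusted p = 0.927) and by 0.16 in control cells (SE 0.06, adjusted p = 0.224), and neither passed.

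SHMT1 (ENSG00000176974), the cytosolic counterpart, passed in no comparison. Knockdown libraries stood at 21.9, 20.4 and 20.0 CPM under drug and 23.2, 18.1 and 21.8 CPM in DMSO. In control cells it had 23.4, 22.0 and 17.9 CPM under drug and 22.0, 18.2 and 22.3 CPM in DMSO. Libraries overlapped in every comparison, and the coefficient of variation within a group ran up to 13.6%. The 4 group differences lay between -0.03 and 0.02 on the log2 scale. The 95% interval of the knockdown effect in DMSO ran from -0.21 to 0.24, so a change of the size seen for SHMT2 lay outside it. Changes within the interval remain possible.

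MTHFD2 (ENSG00000065911) encodes the mitochondrial dehydrogenase and cyclohydrolase of the folate pathway. With the SMARCA4 shRNA the values were 235, 235 and 217 CPM under drug and 178, 170 and 182 CPM in DMSO. The control cells had 229, 213 and 217 CPM under drug and 178, 172 and 195 CPM in DMSO. The drug libraries lay above the DMSO libraries with both shRNAs, and the 2 shRNAs overlapped within each treatment. The drug raised MTHFD2 by 0.37 in knockdown cells (SE 0.06, adjusted p = 9.66e-05), to 130% of the DMSO level. In control cells it rose by 0.28 (SE 0.06, adjusted p = 0.00611), to 121%, a call that was lost without the first replicate under drug, whose column names no treatment (0.24, adjusted p = 0.0968), and without the second in DMSO (0.24, adjusted p = 0.0934). The knockdown effects of -0.04 in DMSO (SE 0.06, adjusted p = 0.637) and 0.06 under drug (SE 0.06, adjusted p = 0.478) did not pass.

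MTHFD1L (ENSG00000120254) encodes the mitochondrial enzyme that releases formate. It had 57.7, 59.9 and 60.5 CPM under drug and 51.9, 55.5 and 52.8 CPM in DMSO in knockdown cells. With the control shRNA the values were 66.6, 68.5 and 67.2 CPM under drug and 58.8, 65.6 and 64.3 CPM in DMSO. Knockdown libraries lay below control libraries in both treatments, and drug libraries lay above DMSO libraries with both shRNAs. MTHFD1L fell with knockdown by 0.23 in DMSO (SE 0.07, adjusted p = 0.00666). Its fall under drug of 0.18 (SE 0.07, adjusted p = 0.0406) was lost in 15 of 20 alternative fits, where the change lay between -0.19 and -0.10 (adjusted p = 0.0503 to 0.282). One of these was the fit without the library whose column names no treatment (-0.19, adjusted p = 0.0691), and the highest p came with library totals. The drug effects of 0.15 in knockdown cells (SE 0.07, adjusted p = 0.392) and 0.10 in control cells (SE 0.07, adjusted p = 0.686) did not pass.

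MTHFD1 (ENSG00000100714) encodes the cytosolic enzyme that takes formate back into the folate pool. In knockdown cells it had 52.2, 53.6 and 57.6 CPM under drug and 52.7, 54.8 and 52.5 CPM in DMSO. Control libraries stood at 56.7, 58.0 and 61.3 CPM under drug and 59.1, 61.1 and 61.2 CPM in DMSO. Knockdown and control libraries were apart in DMSO and overlapped under drug. The fall of 0.18 with knockdown in DMSO (SE 0.07, adjusted p = 0.0365) was lost in 10 of 20 alternative fits, where the change lay between -0.20 and -0.16 (adjusted p = 0.05 to 0.146). The highest p came without the third replicate of knockdown cells in DMSO. The change under drug of -0.10 (adjusted p = 0.276) and the drug effects of 0.03 in knockdown cells (adjusted p = 0.939) and -0.04 in control cells (adjusted p = 0.908) did not pass.

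ASNS (ENSG00000070669) had 263, 259 and 244 CPM under drug and 208, 211 and 197 CPM in DMSO in knockdown cells. In control cells it had 185, 200 and 208 CPM under drug and 185, 166 and 167 CPM in DMSO. Knockdown libraries lay above control libraries in both treatments, and drug libraries lay above DMSO libraries with both shRNAs. ASNS was the one gene of the 9 that passed as higher with knockdown. It rose by 0.37 under drug (SE 0.06, adjusted p = 7.71e-06), to 129% of the control level, and by 0.25 in DMSO (SE 0.06, adjusted p = 0.00123), to 119%. The drug raised it by 0.32 in knockdown cells (SE 0.06, adjusted p = 0.00103), to 125% of the DMSO level, and its change in control cells of 0.19 (SE 0.06, adjusted p = 0.119) did not pass. ASNS has 4 named pseudogenes in GENCODE 29, none with a row in the table.

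PYCR1 (ENSG00000183010) encodes a mitochondrial enzyme of the last step of proline synthesis and was at the floor of these libraries. It had 4, 3 and 4 counts under drug and 6, 7 and 11 in DMSO in knockdown cells. The control cells had 13, 15 and 6 counts under drug and 9, 9 and 4 in DMSO. No library exceeded 1.94 CPM. Fitted without the low-count filter, PYCR1 was lower with knockdown under drug (log2 difference -1.62, SE 0.52, adjusted p = 0.0163), which rests on these few counts, and the other comparisons had adjusted p of at least 0.543.

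Counts come from the 3' ends of messages, and the strand setting of the counting is not given in the sources used here. Within 1000 bases of the 3' end, GENCODE 29 places a gene on the opposite strand for SHMT1, SHMT2, MTHFD1, MTHFD2, MTHFD1L and PYCR1, and one on the same strand for ASNS. Of these neighbours, NDUFA4L2 beside SHMT2 had 2 to 16 counts and ZBTB25 beside MTHFD1 had 11 to 70, and the others had no row. Reads of pairs on opposite strands cannot be told apart without strand. The low counts of those rows and the levels of the genes beside such neighbours, MTHFD1 among them, are uncertain to that extent. Strand would not separate the pair at ASNS, so the level of ASNS is uncertain in the same way. PHGDH, PSAT1 and PSPH had no such neighbour.

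The effect of the SMARCA4 shRNA was first read against the control shRNA in cells given DMSO. The enzymes of serine synthesis at its first and last step (PHGDH, PSPH), mitochondrial SHMT2 and the formate enzymes MTHFD1L and MTHFD1 were lower, while ASNS was higher. Of the 9 genes, 1 passed as higher, where 15.1% of all genes did, and 5 passed as lower, where 16.2% of all genes did. PSAT1, SHMT1 and MTHFD2 did not pass. The median log2 fold change of the 9 was -0.18, beside 0.00 for all genes tested. Scaled by library totals alone, 2063 genes were higher and 1854 lower, against 1899 and 2041 with TMM scaling, and the fall of MTHFD1 no longer passed.

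Knockdown under drug is the same contrast with ibrutinib and venetoclax present. ASNS was again higher and SHMT2, PHGDH and MTHFD1L lower. That is 1 of 9 higher, against 14.8% of all genes, and 3 of 9 lower, against 16.3%. The median of the 9 was -0.10, beside 0.00 for all genes. With library totals, 2691 genes were higher and 1447 lower, against 1860 and 2059 with TMM, and 2 of the 9 passed, ASNS higher and SHMT2 lower. Without the second replicate of knockdown cells under drug, 2 of the 9 passed as well, and without the ribosomal RNA rows or without the library whose column names no treatment, 3 did.

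Cell identity markers moved with the knockdown too, in both directions. SOX11 rose by 0.81 under drug and 0.92 in DMSO (adjusted p = 1.96e-14 and 1.06e-15), and CCND1 fell by 0.31 and 0.33 in the same order (adjusted p = 0.000127 and 5.31e-05). The 2 together summed to 3915 to 4633 CPM under drug and 4049 to 4264 CPM in DMSO in knockdown cells, against 4700 to 5026 CPM and 4422 to 5235 CPM in control cells. The summed level of the 5 B cell markers was 263 to 278 CPM under drug and 243 to 250 CPM in DMSO in knockdown cells, against 542 to 604 CPM and 495 to 526 CPM in control cells. Of 7 T and NK cell markers, CD3D, CD3E, CD8A and NKG7 had no row, and the other 3 summed to 3.58 to 5.82 CPM in knockdown cells and 24.1 to 28.1 CPM in control cells. None of 5 monocyte markers had a row. Of 6 fibroblast and epithelial markers only COL1A1 had one, at 14.2 to 15.1 CPM in knockdown cells and 19.6 to 26.0 CPM in control cells. The part of these shifts, and of the ribosomal share, in the changes of the synthesis genes was not tested.

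**Figure D2:**
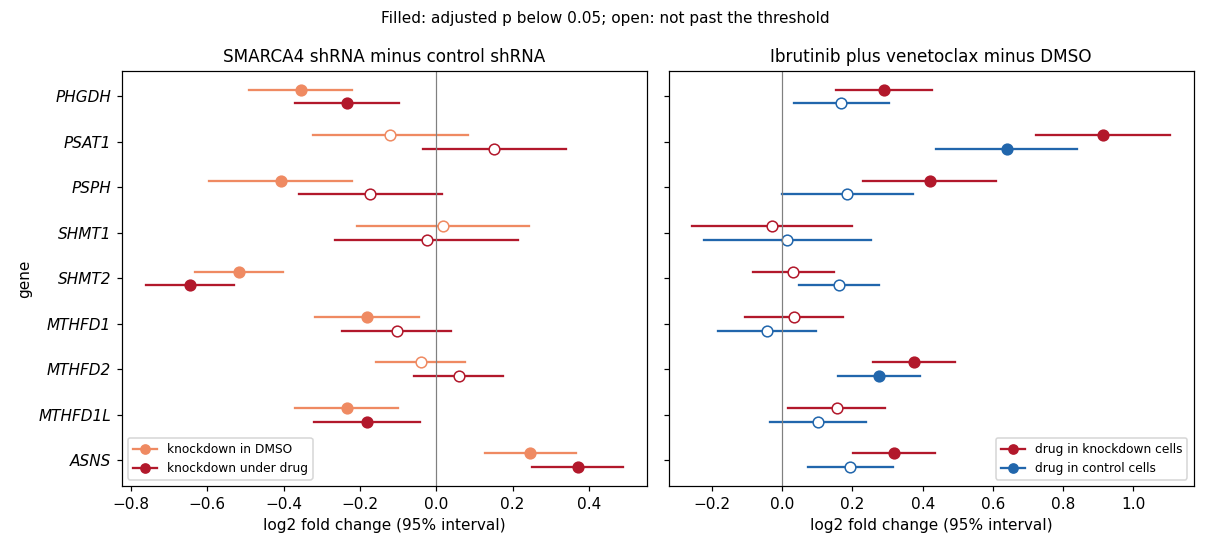
Log2 fold changes of the 9 tested genes with 95% intervals, knockdown over control on the left (in DMSO and under drug) and drug over DMSO on the right (knockdown and control cells), filled where the adjusted p passed 0.05. SHMT2 lies farthest to the lower side under knockdown (-0.65 and -0.52) and PSAT1 farthest to the higher side under drug (0.91 and 0.64).

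The drug comparisons ask what ibrutinib with venetoclax changed within each shRNA. In knockdown cells PSAT1, PSPH, MTHFD2, ASNS and PHGDH rose, which is every enzyme of the serine pathway proper, a mitochondrial folate enzyme and asparagine synthetase. That is 5 of 9 genes higher, where 0.738% of all genes passed as higher, and 0 of 9 lower, where 0.548% did. Because the genes were chosen with earlier results of these data known, this count is a description and not independent support. The median of the 9 was 0.29, beside 0.00 for all genes, and 8 of 9 changes were positive, with SHMT1 (-0.03) the exception. In all, 93 genes were higher and 69 lower, and with library totals 132 were higher and 53 lower, with the same count of 5 among the 9. Without the first replicate of knockdown cells under drug, or without the third in DMSO, 3 of the 9 passed.

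In control cells PSAT1 and MTHFD2 rose, 2 of 9 genes, where 0.738% of all genes passed as higher. None of the 9 passed as lower in edgeR's test, where 0.555% of all genes did. The median of the 9 was 0.17, beside 0.00 for all genes, and 8 of 9 changes were positive, with MTHFD1 (-0.04) the exception. Over all genes 93 were higher and 70 lower, and with library totals 74 were higher and 85 lower. Without the first replicate under drug, whose column names no treatment, 106 genes passed in all and 1 of the 9, PSAT1, and without the second DMSO replicate 1 of the 9 passed likewise.

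Whether the drug effect differed between the shRNAs was tested as an interaction, which subtracts the drug effect of control cells from that of knockdown cells. None of the 9 genes passed in edgeR's test, where 0.00794% of all genes passed as higher and 0.0159% as lower, 3 genes in all, with 674 at an unadjusted p under 0.05. PSAT1 had the highest estimate, 0.27 (95% interval -0.01 to 0.55, adjusted p = 0.922). For PSPH it was 0.23 (interval -0.03 to 0.50, adjusted p = 0.922), for ASNS 0.12 (interval -0.04 to 0.29, adjusted p = 0.949) and for PHGDH 0.12 (interval -0.07 to 0.31, adjusted p = 0.962). MTHFD2 had 0.10 (interval -0.07 to 0.26, adjusted p = 0.965) and SHMT2 had -0.13 (interval -0.29 to 0.03, adjusted p = 0.949). The calls for ASNS, PHGDH and PSPH in knockdown cells alone are therefore not shown to differ from control cells.

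Summed over the 10 genes, the level was 1136 ± 21.1 CPM in knockdown cells under drug and 977 ± 19.1 CPM in DMSO (SD, n = 3 each). In control cells it was 1298 ± 62.8 CPM under drug and 1146 ± 35.1 CPM in DMSO. These sums are led by SHMT2, ASNS and MTHFD2, whose counts are the highest, and carry no test.

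Genes that neighbour the 10 in metabolism were taken from 6 lists, also chosen with earlier results of these data known. Among enzymes of glycine and serine breakdown and transsulfuration, 8 of 10 were tested. CBS, which joins serine to homocysteine, rose with knockdown by 1.57 under drug (SE 0.09, adjusted p = 2.39e-15) and by 1.56 in DMSO (SE 0.09, adjusted p = 4.36e-15), averaging 68.3 CPM in knockdown cells against 23.0 CPM in control cells under drug, and 51.4 CPM against 17.4 CPM in DMSO. It also rose with the drug by 0.40 in knockdown cells (SE 0.08, adjusted p = 0.00174) and by 0.40 in control cells (SE 0.10, adjusted p = 0.0448). The call in control cells was not checked without the library whose column names no treatment. No other gene of the list passed in these comparisons except SDSL, a serine dehydratase relative, which fell by 1.83 with knockdown under drug (SE 0.37, adjusted p = 0.000223). SDSL averaged 0.77 CPM in knockdown cells under drug against 2.74 CPM in control cells under drug, so this fall rests on few counts. Its change of -0.51 in DMSO did not pass (adjusted p = 0.19).

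Of 16 tested genes of the folate and methionine cycles, 4 were lower and 1 higher with knockdown in DMSO, and 6 were lower and 0 higher under drug. Over all genes, 16.2% were lower and 15.1% higher in DMSO, and 16.3% were lower and 14.8% higher under drug. SLC25A32, the mitochondrial folate carrier, fell by 0.68 under drug (adjusted p = 3.6e-06) and 0.53 in DMSO (adjusted p = 3.74e-05). MAT2A, which makes S-adenosylmethionine, fell by 0.21 under drug and 0.31 in DMSO. MTR, methionine synthase, fell by 0.33 under drug, and its change of -0.16 in DMSO did not pass (adjusted p = 0.0598). All 8 enzymes of de novo purine synthesis were tested, and 3 fell with knockdown in each treatment, beside 16.3% of all genes under drug and 16.2% in DMSO. PPAT, the first committed step, fell by 0.42 under drug and 0.31 in DMSO, ATIC by 0.25 and 0.26, and PAICS by 0.17 and 0.19. With the drug, 0 of the 16 and 0 of the 8 passed in edgeR's test with either shRNA. Over all genes, 0.738% were higher with the drug with either shRNA, and 0.548% were lower in knockdown cells and 0.555% in control cells. For so few genes, 0 lies near those shares.

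Of 10 tested genes around proline, aspartate and glutamine, 5 were lower and 2 higher with knockdown in each treatment, and 0 passed with the drug in edgeR's test. Over all genes, 16.3% were lower with knockdown under drug and 16.2% in DMSO, and 14.8% and 15.1% were higher. With the drug, 0.738% of all genes were higher with either shRNA, and 0.548% were lower in knockdown cells and 0.555% in control cells. The changes that follow are those with knockdown. GLUL, glutamine synthetase, fell by 0.73 under drug and 0.71 in DMSO. GOT1 and GOT2, which make the aspartate that ASNS uses, fell by 0.49 and 0.37 under drug and by 0.46 and 0.39 in DMSO. The 2 higher genes, named after their values were seen, were OAT, ornithine aminotransferase (0.40 under drug and 0.41 in DMSO), and ASRGL1, an asparaginase (0.25 and 0.34).

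Of 16 tested ATF4 response genes outside synthesis, 5 were higher and 0 lower with the drug in knockdown cells, and 4 were higher and 0 lower in control cells. Over all genes 0.738% were higher with either shRNA, and 0.548% were lower in knockdown cells and 0.555% in control cells. The list's median change was 0.36 in knockdown cells and 0.26 in control cells, beside 0.00 for all genes. CHAC1, which degrades glutathione, rose by 2.07 in knockdown cells (SE 0.14, adjusted p = 1.3e-11) and by 1.53 in control cells (SE 0.14, adjusted p = 1.19e-08). SESN2, a sensor that restrains mTORC1, rose by 0.90 and 0.81 in the same order. The cystine carrier gene SLC7A11 rose by 1.12 in knockdown cells (adjusted p = 3.97e-06) and by 0.85 in control cells (adjusted p = 0.00124). The cationic amino acid carrier gene SLC7A1 rose by 0.44 in knockdown cells (adjusted p = 1.42e-05) and by 0.36 in control cells (adjusted p = 0.000303). ATF4 itself, named after its values were seen, rose by 0.34 in knockdown cells (SE 0.05, adjusted p = 0.000118) and changed by 0.16 in control cells (adjusted p = 0.174).

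With knockdown the same list had 4 higher and 2 lower under drug, beside 14.8% higher and 16.3% lower over all genes, and 3 higher and 5 lower in DMSO, beside 15.1% and 16.2%. SLC7A5, the large neutral amino acid carrier, rose by 0.80 under drug and 0.86 in DMSO, and TRIB3, a pseudokinase that restrains ATF4, fell by 1.24 and 1.35. SLC3A2, the partner chain of SLC7A5, rose by 0.40 under drug and 0.38 in DMSO, and ATF5 rose by 0.35 and 0.41 in the same order. Also lower in DMSO were ATF4 (-0.22, adjusted p = 0.00205), ATF3 (-1.44, adjusted p = 0.000266), SESN2 (-0.30, adjusted p = 0.00262) and CHAC1 (-0.48, adjusted p = 0.0304). ATF3, named after its values were seen, averaged 1.55 CPM there against 4.60 CPM. ATF4 averaged 437 CPM in knockdown and 507 CPM in control cells in DMSO, and 555 and 568 CPM under drug. Under drug SESN2 fell by 0.21 and SLC7A11 rose by 0.44. Of 9 stress kinases and other regulators, 2 were higher and 1 lower under drug and 3 were higher and 0 lower in DMSO, set against the same shares of all genes. With the drug, 0 of the 9 passed in edgeR's test. Of all genes, 0.738% were higher with the drug with either shRNA, and 0.548% were lower in knockdown cells and 0.555% in control cells. With knockdown, EIF2AK4, the kinase GCN2 that senses uncharged tRNA, rose by 0.59 under drug and 0.52 in DMSO. EIF2AK3, the kinase PERK, rose by 0.41 and 0.65. MYC fell by 0.33 with knockdown under drug, and its change of -0.09 in DMSO did not pass (adjusted p = 0.585). NFE2L2 rose by 0.25 in DMSO, and its change of 0.22 under drug did not pass (adjusted p = 0.0596). None of the 6 lists had a gene past the threshold in the edgeR interaction test.

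**Figure D3:**
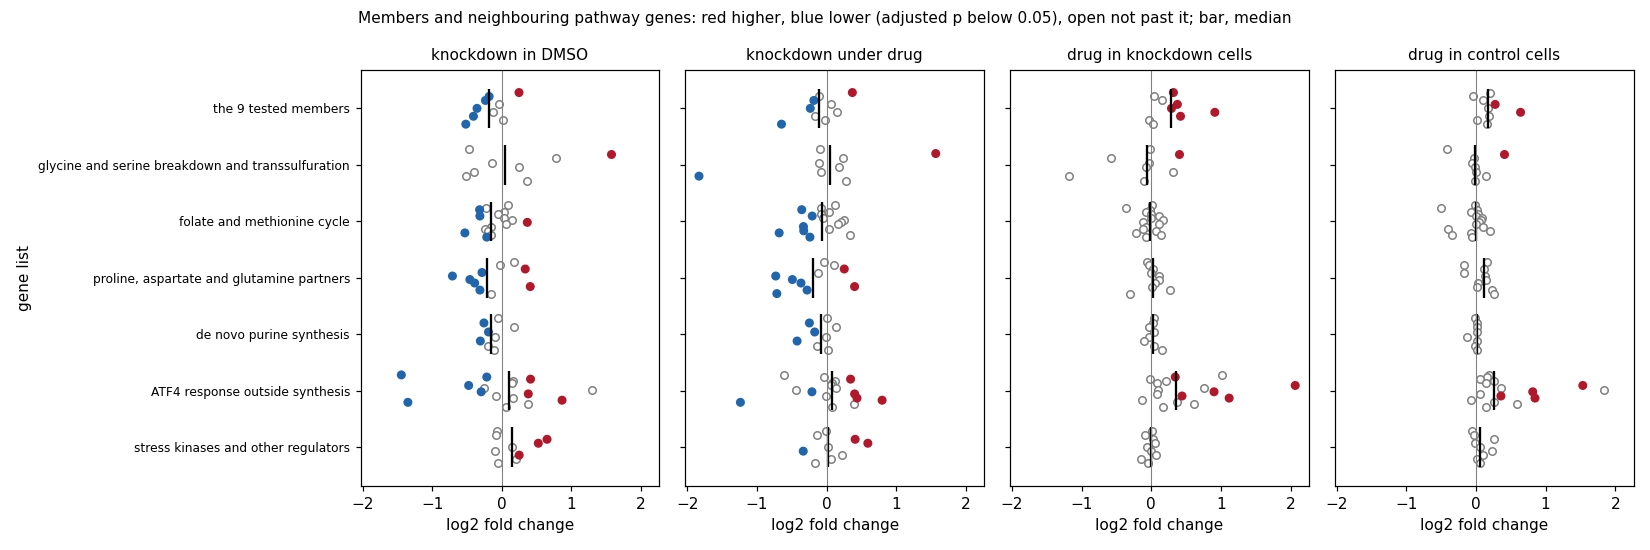
Log2 fold changes of the tested synthesis genes and of 6 neighbouring lists in the 4 comparisons, red for higher, blue for lower and open for not past the threshold, with a bar at each list's median. Under drug the synthesis genes and the ATF4 response list have medians of 0.29 and 0.36 in knockdown cells and 0.17 and 0.26 in control cells, while under knockdown points lie on both sides in both.

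The genes whose pattern over the 4 groups was most like that of 3 of the enzymes were sought among 8171 well-measured genes, by the root mean square difference of centred group-mean log2 CPM. For PHGDH they included AARS, an alanyl-tRNA synthetase (difference 0.02), and BCAT1, a branched-chain aminotransferase (0.02). AARS averaged 144 CPM in knockdown cells under drug and 121 CPM in DMSO, against 172 CPM in control cells under drug and 154 CPM in DMSO. For ASNS they were AP3M2, PCYT2 and CHST14, each within 0.03. For PSAT1 the nearest were farther away: SCD, the stearoyl-CoA desaturase, at 0.10, and SESN2 and VEGFA, each at 0.15. SCD averaged 289 CPM in knockdown cells under drug and 163 CPM in DMSO, against 245 CPM in control cells under drug and 147 CPM in DMSO. Likeness over 4 group means is a description and has no test.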

How the data were processed

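Per the labels' protocols, RNA was isolated with a Qiagen kit and libraries were made with Lexogen's QuantSeq kit. The authors deposited 1 table of raw counts per gene, whole numbers with no normalization. Per the submitters' processing notes, bcl2fastq 2.17.1.14, HISAT2, HTSeq and build hg19 were used. Not given in the sources used here are the versions of aligner and counter, the annotation, the strand setting and any filter. Because the annotations at hand are of GRCh38, coordinates are given for RefSeq promoters alone. Of the 12 columns, 11 were matched to samples by full name and 1 by elimination.

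Genes were kept with filterByExpr (minimum count 10, total 15), which removed 1218 of 13820. Counts were scaled by TMM, and all 12 libraries entered 1 quasi-likelihood model in edgeR 4.0.16 (R 4.3.3) with 1 coefficient per group, 8 residual and 22.5 prior degrees of freedom and a biological coefficient of variation of 5.69%. Its two-sided F tests were adjusted by Benjamini-Hochberg over 12602 genes in each of 5 comparisons. Comparisons that share a group are not independent. The SE is the fold change's size over the square root of F, and the 95% intervals are approximate. Replicate numbers were not shown to pair libraries, and no block was used.

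The members and lists were chosen with earlier results of these data known. Named genes were the members, SMARCA4, at most 3 genes per list and comparison with the smallest adjusted p past the threshold, and the 3 genes most like PHGDH, PSAT1 and ASNS among genes of mean log2 CPM 3 or more. ATF4, ATF3, OAT, ASRGL1 and values of named genes in further comparisons were added beside that rule. Some genes that the rule names are left out of the text. Alternatives were DESeq2 size factors, library totals, DESeq2 1.42.0's Wald test, leaving out the low-count filter or raising it to 5 CPM in 3 libraries, fits of the compared groups alone, a replicate block, each library left out and, chosen after seeing the data, ribosomal RNA rows taken out. Fold changes are of RNA per total count, so RNA per cell was not measured.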

Additional observations from a re-analysis of the deposited data

How the results depend on the processing

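Of 45 results (9 genes in 5 comparisons), 39 kept their side of the threshold under every alternative run (20, or 19 for the interaction), 6 lost a call under at least 1, and 0 were gained. The sign changed under some alternative for 7 results, none of them called: SHMT1 in all 5 comparisons, MTHFD2 with knockdown in DMSO and MTHFD1 with the drug in knockdown cells. The 6 called results that were lost kept their sign. They were MTHFD1 with knockdown in DMSO, PHGDH and MTHFD1L with knockdown under drug, PHGDH and PSPH with the drug in knockdown cells and MTHFD2 with the drug in control cells, with values or ranges given beside each gene. The cause was not tested. With library totals, 2 of the 9 passed under knockdown with drug. The interaction over all genes had 1 call with the filter at 5 CPM and 0 with ribosomal RNA rows taken out.

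Leaving out each library in turn gave 5 to 6 of the 9 for knockdown in DMSO (3218 to 4094 of all genes). For knockdown under drug the count was 2 to 5 of the 10 genes (3312 to 3954 of all genes). The count of 5 includes PYCR1, because none of the 9 gained a call in any fit. For the drug in knockdown cells, leaving out a library gave 3 to 5 of the 9 (100 to 181 of all genes, with 100 without the third replicate in DMSO). In control cells it gave 1 to 2 (106 to 176). For the interaction it gave 0 throughout for the 9 and 1 to 3 of all genes.

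Same-numbered libraries of different groups deviated with correlations of -0.116 to 0.0821 (18 pairs), so the numbers are not shown to pair them. With the replicate number as a block, the calls among the 9 were 6, 4, 5, 2 and 0 for knockdown in DMSO, knockdown under drug, the drug in knockdown cells, the drug in control cells and the interaction, as without it, and over all genes 3822, 3827, 147, 150 and 2. PYCR1, at 3 to 15 counts, was tested without the low-count filter and also in fits with 1 library left out where that filter kept it. With knockdown under drug it was called lower when the second replicate in DMSO of knockdown or of control cells was left out. Its values in those fits are not given here, and these calls rest on the same few counts.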
